A study of Mus musculus with 6 samples.

Results

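The genes described here are 35 mouse genes of the cell division cycle, chosen by symbol from a list of S phase and mitosis genes, out of 56980 genes in the deposited expression table. Each of the 35 was found once. They were divided by role into 14 S phase genes, which copy DNA or supply what that takes, and 21 mitosis genes, which act from late S phase to cell separation. RNA sequencing covered 6 libraries of lung tissue from NSG mice, an immunodeficient strain that lacks mature T, B and natural killer cells but keeps neutrophils and macrophages. The mice of both groups had received human breast cancer cells in the mammary fat pad 5 weeks earlier. In the Ctrl group (n = 3) these were MDA-MB-231 cells, a triple-negative line, and in the DPP3_KO group (n = 3) MDA-MB-231 cells with a knockout of DPP3, the gene of dipeptidyl peptidase 3. The knockout lies in the human tumour cells, so no mouse gene checks it. The sources used here do not give the ages of the mice, or whether the knockout line is 1 clone. The question is whether division genes of the host lung differ with DPP3 status of the tumour.

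A dividing cell first makes its S phase genes under the E2F transcription factors, which are released from the RB family when G1 cyclins and their kinases become active. The mitosis genes follow later, through the MYBL2 and FOXM1 factors and the MuvB complex, which binds a short element called CHR near their start sites. In an adult lung few cells divide, so both sets are usually low, and their RNA can come from resident macrophages, endothelial, epithelial or blood-derived cells.

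The promoters of the members carry the 2 kinds of element in different shares. RefSeq promoters of the GRCm38.p6 build, from 250 bases before to 50 after the start, matched 30 of the 35 members by symbol. A CHR element, TTTGAA or TTCGAA on either strand, was found in 13 of 17 mitosis members and 2 of 13 S phase members, against 19.2% of 32851 promoters. An E2F element, TTTCCCGC, TTTCGCGC, TTTGCCGC or TTTGGCGC on either strand, was found in 1 of 17 mitosis members and 5 of 13 S phase members, against 2.26% of all promoters. The CCAAT box, CCAAT on either strand, was found in 15 of 17 mitosis members and 8 of 13 S phase members, against 37.4%. Overlapping E2F matches, as in Mcm5 and Mcm6, were counted once per promoter. A match describes the letters and does not show that a factor bound there. The 6 promoters below span 170 bases before to 30 after the start, 5′ to 3′, with CHR and E2F letters in capitals. They are shown because Mcm5 and Mcm6 fell as deposited, Rrm1 overlapped between groups, Top2a and Cdk1 varied widely between DPP3_KO libraries, and Ube2c was not lower.
Mcm5, chr8:75109339-75109538, plus strand: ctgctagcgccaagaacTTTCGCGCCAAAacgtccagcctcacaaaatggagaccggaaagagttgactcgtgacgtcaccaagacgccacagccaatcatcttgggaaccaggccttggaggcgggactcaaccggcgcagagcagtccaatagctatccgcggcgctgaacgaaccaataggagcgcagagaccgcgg
Mcm6, chr1:128359676-128359875, minus strand: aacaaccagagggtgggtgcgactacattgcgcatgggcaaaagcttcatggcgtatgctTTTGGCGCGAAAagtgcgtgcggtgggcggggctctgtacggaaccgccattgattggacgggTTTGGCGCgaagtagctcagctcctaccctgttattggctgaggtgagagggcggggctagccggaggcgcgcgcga
Rrm1, chr7:102441525-102441724, plus strand: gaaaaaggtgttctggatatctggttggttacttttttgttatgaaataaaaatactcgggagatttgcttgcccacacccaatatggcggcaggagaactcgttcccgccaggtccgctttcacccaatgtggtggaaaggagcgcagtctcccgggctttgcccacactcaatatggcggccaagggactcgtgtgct
Top2a, chr11:99024160-99024359, minus strand: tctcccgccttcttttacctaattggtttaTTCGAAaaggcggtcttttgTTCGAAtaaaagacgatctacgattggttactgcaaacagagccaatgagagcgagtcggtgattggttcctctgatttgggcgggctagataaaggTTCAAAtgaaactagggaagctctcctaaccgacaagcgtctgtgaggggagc
Cdk1, chr10:69352883-69353082, minus strand: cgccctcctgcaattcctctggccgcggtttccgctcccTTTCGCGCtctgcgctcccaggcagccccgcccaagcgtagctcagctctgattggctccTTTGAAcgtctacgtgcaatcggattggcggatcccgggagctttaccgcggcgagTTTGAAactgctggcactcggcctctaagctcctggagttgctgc
Ube2c, chr2:164769759-164769958, plus strand: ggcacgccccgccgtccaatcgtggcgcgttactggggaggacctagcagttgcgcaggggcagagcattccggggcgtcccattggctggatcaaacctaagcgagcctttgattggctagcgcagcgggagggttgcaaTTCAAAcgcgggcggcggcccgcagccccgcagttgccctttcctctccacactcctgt
The run of capitals in Mcm5 holds 2 overlapping E2F matches and the first run in Mcm6 holds 2 more, with a further one nearer the start. Cdk1 holds 2 CHR elements and 1 E2F element, Top2a holds 3 CHR elements in this window, and Ube2c holds 1. Rrm1 holds neither kind in this window.

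Values are TPM, transcript abundance per length as a share of each library, and so keep no sequencing depth, and no counting interval can be given. Lung identity was plain, with the surfactant gene Sftpc between 14519 and 38794 TPM and the T cell gene Cd3e listed at 0 in 5 of 6 libraries and at 0.03 in the other. The club cell gene Scgb1a1 stood at 71578 to 101282 TPM in Ctrl and 217097 to 287457 in DPP3_KO, and the median log2 change over all 15650 genes tested was -0.60 (DPP3_KO minus Ctrl). Median-of-ratios scaling, which sets each library against the typical gene, brought that median to -0.02, and changes on that scale are called scaled. Replicates carry numbers only and may not all be separate mice, and a p-value then covers the spread between libraries, which may be technical.

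Mean levels of the members over the 6 libraries ran from 0.370 TPM for Cenpf to 56.9 TPM for Pcna. TPM is per length, so levels can be compared between genes. The median S phase member stood at 6.46 TPM and the median mitosis member at 1.80. Pcna (ENSMUSG00000027342), the sliding clamp of DNA polymerase, was followed by the helicase gene Mcm7 (19.9 TPM), the ribonucleotide reductase gene Rrm1 (16.6) and Mcm6 (12.1). The highest mitosis member was Ube2c, the ubiquitin-conjugating enzyme of the anaphase-promoting complex, at 7.34 TPM. A mean of at least 1 TPM, the limit for testing, was reached by 12 of 14 S phase members and 16 of 21 mitosis members. Ccne1 and Cdc6 of the first set and Bub1, Bub1b, Kif11, Cenpe and Cenpf of the second fell short and were not tested.

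S phase genes were lower in DPP3_KO lungs as deposited, with summed levels of 106 to 116 TPM in the 3 libraries against 164 to 234 in Ctrl. After scaling to the typical gene the sums overlapped, at 139, 119 and 166 in DPP3_KO replicates 1 to 3 against 186, 146 and 138 in Ctrl. Of 12 tested S phase members, 8 fell, 0 rose and 4 did not pass (limma, Benjamini-Hochberg adjusted p under 0.05 over all genes), where 34.0% of all genes tested were called lower and 1.38% higher. Their median log2 change was -0.89, against -0.60 over all genes. When scaled, 0 of the 12 passed (limma), against 0.888% of all genes called lower and 1.94% higher. At an unadjusted p under 0.05 (limma), 3 of the 12 were lower, as were 1793 of all 15650 genes tested. The scaled median was -0.34, and 10 of the 12 were below 0. A lower TPM in bulk lung can reflect fewer dividing cells, less RNA per dividing cell or a larger share of other RNA. Which of these applied was not tested.

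The 6 MCM genes encode the ring of the replicative helicase that opens DNA at origins. As deposited 5 of them fell (limma), where 34.0% of all genes tested were called lower. After scaling 0 of them passed, where 0.888% of all genes were called lower. Mcm5 (ENSMUSG00000005410) stood at 14.3, 8.12 and 6.03 TPM in Ctrl replicates 1 to 3 and at 1.68, 1.46 and 3.11 in DPP3_KO replicates 1 to 3. Every DPP3_KO library was below every Ctrl library, and the mean went from 9.47 ± 4.27 TPM (SD, n = 3) to 2.08 ± 0.896, a log2 change of -1.72 ± 0.35 SE (limma adjusted p = 0.0179). This was the largest change among the 28 tested members, and after scaling it was -1.19 (limma adjusted p = 0.128) with the groups still apart.

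Mcm2 (ENSMUSG00000002870) stood at 9.64, 5.32 and 3.75 TPM in Ctrl and 2.37, 2.13 and 1.49 in DPP3_KO (-1.20 ± 0.33 SE on the log2 scale, limma adjusted p = 0.0316). Mcm4 (ENSMUSG00000022673) stood at 15.8, 12.9 and 11.4 TPM in Ctrl and 5.69, 7.68 and 4.71 in DPP3_KO (-1.04 ± 0.23, adjusted p = 0.0199). In both genes the groups did not overlap, as deposited or after scaling, where the changes were -0.70 and -0.45 (adjusted p = 0.224 and 0.193). Mcm6 (ENSMUSG00000026355) stood at 19.7, 16.4 and 12.7 TPM in Ctrl and 8.79, 6.75 and 8.10 in DPP3_KO (-0.95 ± 0.22, adjusted p = 0.0214).
Mcm7 (ENSMUSG00000029730) stood at 24.7, 28.3 and 23.9 TPM in Ctrl and 15.2, 16.1 and 11.4 in DPP3_KO (-0.82 ± 0.19, adjusted p = 0.0225). The groups of both were apart as deposited. After scaling Mcm6 was at -0.34 with overlapping groups and Mcm7 at -0.19. Mcm3, the remaining ring subunit, stood at 12.6 ± 3.57 and 6.67 ± 2.13 TPM and did not pass (log2 change -0.83, limma adjusted p = 0.0557).

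The genes that make deoxynucleotides did not move alike. Tk1 (ENSMUSG00000025574), the thymidine kinase of the salvage route, stood at 11.6, 11.2 and 6.03 TPM in Ctrl and 2.28, 4.88 and 2.91 in DPP3_KO, and fell by 1.28 ± 0.32 SE on the log2 scale (limma adjusted p = 0.0261). Rrm2, the S phase subunit of ribonucleotide reductase, stood at 4.21, 3.72 and 3.05 TPM in Ctrl and 0.88, 2.62 and 1.71 in DPP3_KO, and did not pass (-0.81, adjusted p = 0.0670) although the groups did not overlap. Its partner subunit Rrm1 stood at 17.9 ± 2.18 and 15.3 ± 3.61 TPM with overlapping groups, at -0.23 as deposited and 0.40 after scaling (adjusted p = 0.412 and 0.393). Tyms, thymidylate synthase, stood at 8.18 ± 4.06 and 4.68 ± 0.929 TPM (-0.61, adjusted p = 0.190; -0.04 after scaling).

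Pcna stood at 76.4, 66.1 and 63.5 TPM in Ctrl and 50.2, 38.9 and 46.0 in DPP3_KO. The groups were apart, and the log2 change of -0.60 ± 0.18 SE passed (limma adjusted p = 0.0367), but it equalled the median over all genes and was 0.05 after scaling (adjusted p = 0.907). E2f1 (ENSMUSG00000027490), an activating E2F factor, stood at 6.47, 4.15 and 2.89 TPM in Ctrl and 1.34, 1.61 and 1.63 in DPP3_KO. Every DPP3_KO library was below every Ctrl library on both scales, and the gene fell by 1.07 ± 0.29 SE as deposited (adjusted p = 0.0294), with -0.60 after scaling (adjusted p = 0.237). The untested Ccne1, cyclin E1, and Cdc6, which loads the helicase, stood at 1.28 ± 0.365 and 1.26 ± 0.849 TPM in Ctrl and at 0.603 ± 0.127 and 0.620 ± 0.0819 in DPP3_KO.

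**Figure D1:**
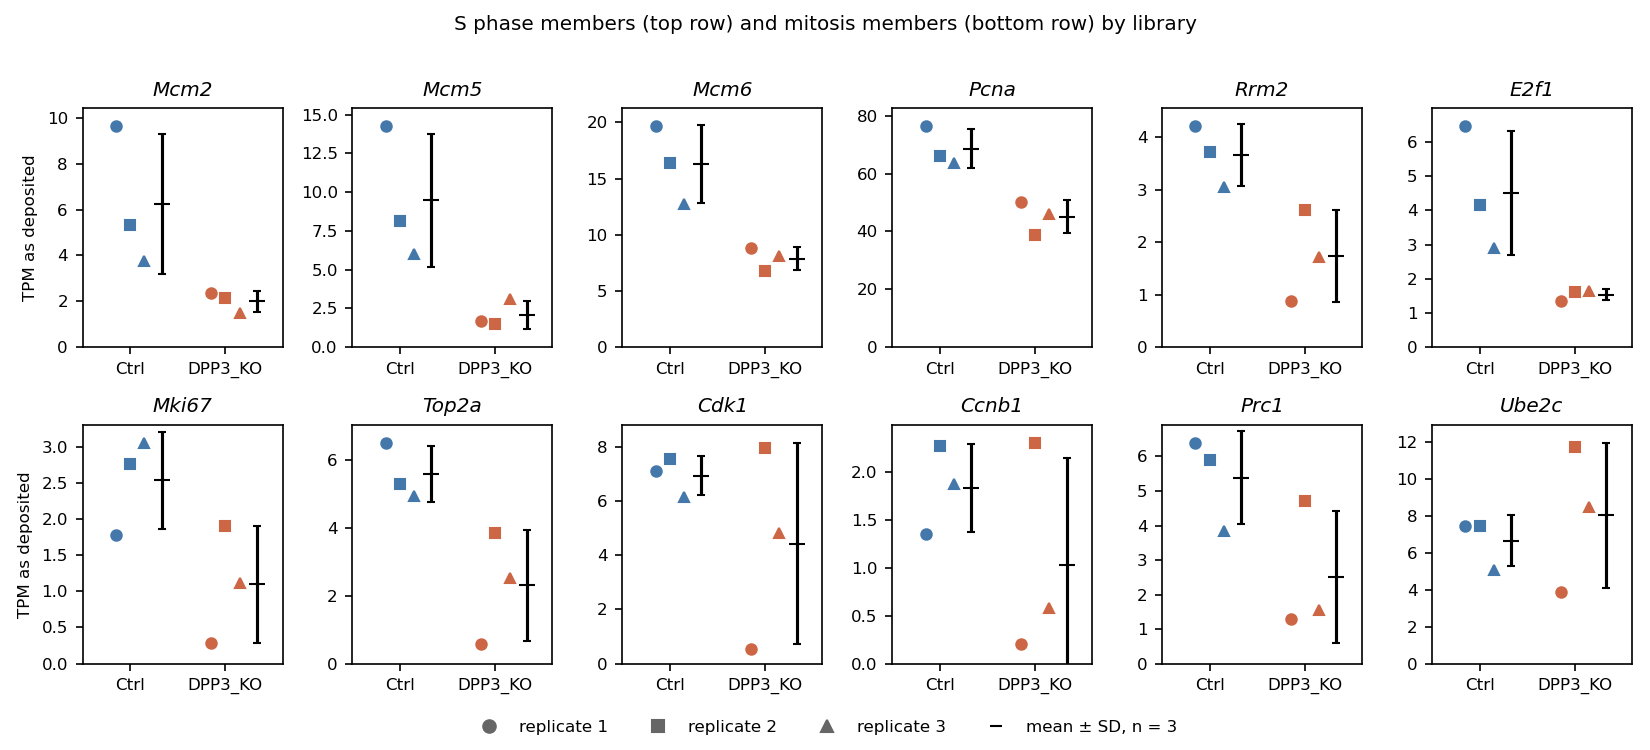
TPM as deposited of 6 S phase members (top row) and 6 mitosis members (bottom row) in each library, with the mean and SD of each group (n = 3; bars are cut at 0). The 6 S phase genes shown lie lower in all 3 DPP3_KO libraries, although Mcm6, Pcna and Rrm2 overlap between groups after median-of-ratios scaling. Rrm1, Tyms and Cdc6, not shown, overlap as deposited. Cdk1, the mitosis member of widest spread within DPP3_KO, runs from 0.53 to 7.96 TPM in that group.

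Mitosis genes differed far more among the 3 DPP3_KO lungs than among the Ctrl lungs, and none of the tested ones passed. Of 16 tested mitosis members, 0 rose and 0 fell (limma adjusted p from 0.0658 to 0.766, where 34.0% of all genes were called lower), and after scaling 0 passed again, with 0 at an unadjusted p under 0.05. Their median log2 change was -0.71 as deposited, between that over all genes (-0.60) and that of the S phase members (-0.89). After scaling it was -0.35, near that of the S phase members (-0.34). The standard errors of the changes were wider, from 0.29 to 0.60 with a median of 0.38, against 0.18 to 0.35 with a median of 0.28 for S phase members. The smaller number of calls in mitosis than in S phase members was not itself tested.

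Mki67, which encodes the proliferation antigen Ki-67, stood at 1.78, 2.77 and 3.06 TPM in Ctrl and 0.28, 1.90 and 1.11 in DPP3_KO replicates 1 to 3. The groups overlapped, since DPP3_KO replicate 2 lay above Ctrl replicate 1, and the log2 change of -0.81 ± 0.36 SE did not pass (limma adjusted p = 0.108). Top2a, the topoisomerase that untangles chromosomes, stood at 6.51, 5.29 and 4.93 TPM in Ctrl and 0.58, 3.84 and 2.51 in DPP3_KO (-1.13 ± 0.41, adjusted p = 0.0658). Its groups were apart as deposited and overlapped after scaling (-0.64, adjusted p = 0.415).

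Cdk1, the kinase that starts mitosis, stood at 7.12, 7.58 and 6.16 TPM in Ctrl and 0.53, 7.96 and 4.83 in DPP3_KO. Replicate 1 was the lowest of the 6 libraries and replicate 2 the highest, so the change of -0.88 carried an SE of 0.60 (limma adjusted p = 0.266). Its partner Ccnb1, cyclin B1, stood at 1.36, 2.27 and 1.88 TPM in Ctrl and 0.20, 2.31 and 0.58 in DPP3_KO (-0.61 ± 0.41, adjusted p = 0.263). Here too replicate 2 was the highest of all libraries. The other mitotic cyclins, Ccnb2 and Ccna2, stood at -0.56 and -0.95 (adjusted p = 0.336 and 0.0823); Ccna2 also acts in S phase.

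The mitotic kinases Aurka, Aurkb and Plk1, which build the spindle and part the chromosomes, stood at log2 changes of -0.37, -0.71 and -0.43. Birc5, the survivin subunit that works with Aurkb, stood at 6.69, 3.46 and 3.61 TPM in Ctrl and 0.36, 3.70 and 3.42 in DPP3_KO (-0.83, limma adjusted p = 0.223). The spindle and midzone genes Prc1, Kif20a, Nusap1 and Tpx2 stood at -0.97, -0.91, -0.72 and -0.62 (adjusted p from 0.0850 to 0.157). None of these 8 passed. The untested checkpoint kinase gene Bub1b averaged 1.54 ± 0.0961 TPM (SD, n = 3) in Ctrl and 0.460 ± 0.182 in DPP3_KO, and the untested spindle motor gene Kif11 at 1.33 ± 0.221 and 0.410 ± 0.230. In both, the groups were apart on both scales. Of all 21 mitosis members, tested or not, 6 were apart as deposited and only these 2 after scaling. The shares of all genes tested that were lower without overlap were 51.1% and 15.2%.

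The anaphase-promoting complex ends mitosis, and neither of its 2 genes among the members passed. Cdc20, its activator, stood at 7.54, 8.77 and 3.02 TPM in Ctrl and 1.68, 8.77 and 3.09 in DPP3_KO (-0.55, limma adjusted p = 0.427). Ube2c stood at 7.45, 7.47 and 5.07 TPM in Ctrl and 3.87, 11.7 and 8.47 in DPP3_KO, and was the 1 tested member above 0 as deposited (0.14 ± 0.37, adjusted p = 0.766; 0.72 after scaling, adjusted p = 0.277). Of the 6 libraries, DPP3_KO replicate 2 held the highest value and DPP3_KO replicate 1 the lowest.

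**Figure D2:**
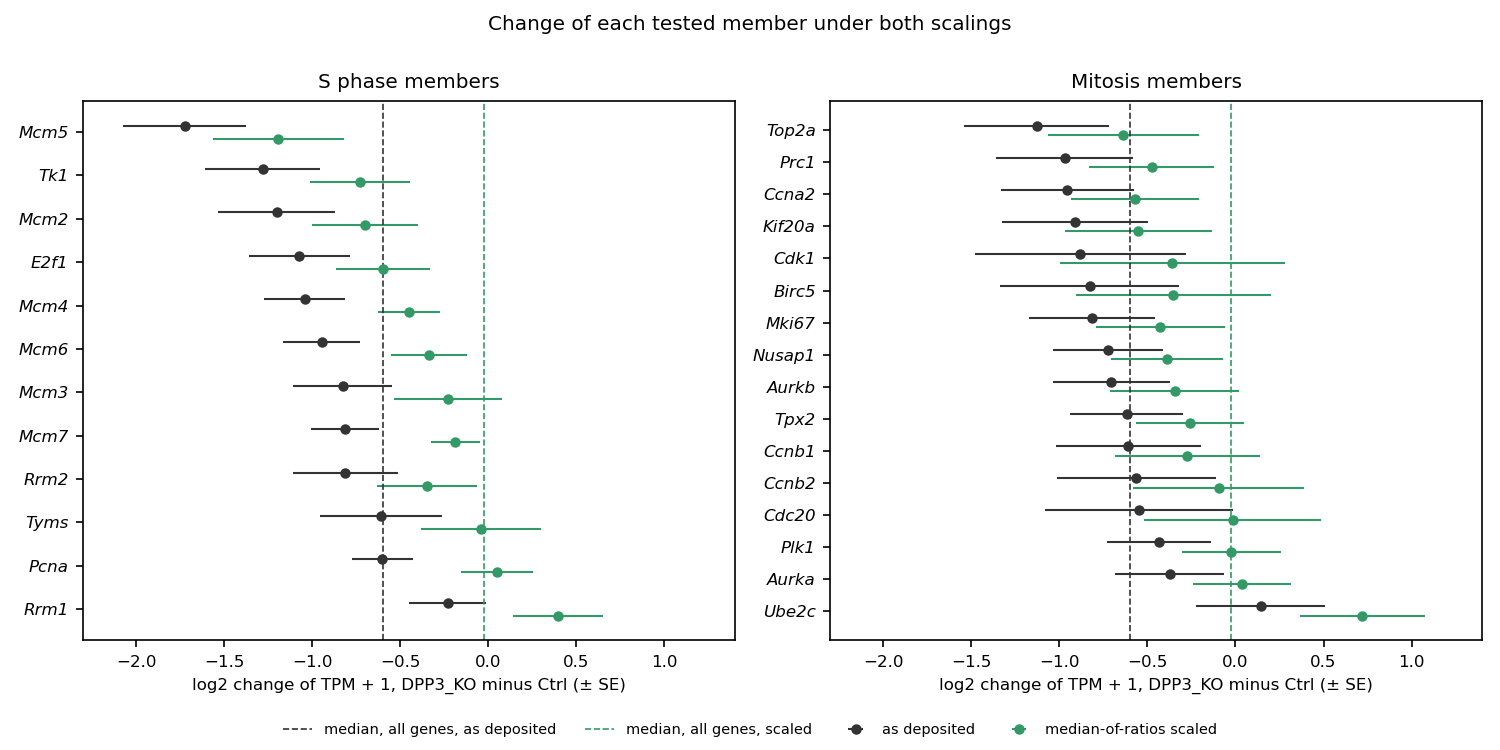
Log2 change of TPM + 1 (DPP3_KO minus Ctrl, ± SE) of the 12 tested S phase and 16 tested mitosis members, unscaled and with median-of-ratios scaling, with dashed lines at the medians over all genes (-0.60 and -0.02). Mcm5 lies farthest below 0 at -1.72, and Ube2c lies above 0 on both scales.

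The libraries ranked the 2 sets differently. Of 21 mitosis members, 20 were lowest of all 6 libraries in DPP3_KO replicate 1 and the other, Bub1b, in DPP3_KO replicate 3. Of 14 S phase members, 5 were lowest in DPP3_KO replicate 1, 5 in replicate 2, 3 in replicate 3 and 1, Cdc6, in Ctrl replicate 3. The ratio of the highest to the lowest DPP3_KO library ran from 1.91 for Bub1b to 15.02 for Cdk1 in mitosis members, with a median of 6.62, and from 1.22 to 2.98 in S phase members, with a median of 1.54. Within Ctrl the medians were 1.54 and 1.74. The ratio was wider in DPP3_KO than in Ctrl for 20 of 21 mitosis members and 7 of 14 S phase members. Members share their libraries, so these counts describe 3 libraries and carry no test. They were not made over all genes, so a wide spread is not shown to be particular to mitosis genes. The neutrophil gene S100a8 was also lowest of all 6 libraries in DPP3_KO replicate 1, at 394 TPM against 10614 in replicate 2.

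Each library's position against the Ctrl range shows the same. Counts per library were not made over all genes, so no share of all genes stands beside them. As deposited, 21 of 21 mitosis members were below the lowest Ctrl library in DPP3_KO replicate 1, 6 in replicate 2 and 17 in replicate 3, and 13, 12 and 11 of the 14 S phase members were. After scaling, 19 mitosis members were below and 0 above the Ctrl range in replicate 1, 4 below and 11 above in replicate 2, and 10 below and 7 above in replicate 3. For S phase members the scaled counts were 9 below and 2 above in replicate 1, 9 below and 0 above in replicate 2, and 7 below and 2 above in replicate 3. As deposited, the groups did not overlap, with DPP3_KO lower, for 10 of 12 tested S phase and 3 of 16 tested mitosis members, against 51.1% of all genes tested. With DPP3_KO higher it held for 0 of the 28, against 2.73%. After scaling DPP3_KO was lower without overlap in 5 of 12 and 0 of 16, against 15.2%, and higher in 0 of the 28, against 14.9%.

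A ratio within a library does not depend on scaling between libraries. Summed TPM of the 21 mitosis members divided by that of the 14 S phase members was 0.292, 0.352 and 0.322 in Ctrl and 0.116, 0.603 and 0.324 in DPP3_KO replicates 1 to 3. Replicate 1 was below, replicate 2 above and replicate 3 within the Ctrl range. The sums themselves were 234, 197 and 164 TPM (S phase) and 68.5, 69.5 and 52.9 (mitosis) in Ctrl. In DPP3_KO they were 113, 106 and 116 (S phase) and 13.03, 64.2 and 37.6 (mitosis). Pcna made up much of the S phase sum; without it the ratio was 0.434, 0.530 and 0.526 in Ctrl and 0.208, 0.951 and 0.536 in DPP3_KO. For 1 pair of genes, Cdk1 over Mcm6, it was 0.362, 0.462 and 0.484 in Ctrl and 0.0603, 1.18 and 0.596 in DPP3_KO.

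Markers of neutrophils, short-lived white cells that no longer divide once mature, also differed widely between libraries of each group. The 13 mature neutrophil genes summed to 4326, 7490 and 52370 TPM in Ctrl replicates 1 to 3 and to 1856, 35248 and 14991 in DPP3_KO replicates 1 to 3. S100a8, a defining gene, stood at 965, 1766 and 17949 TPM in Ctrl and 394, 10614 and 4826 in DPP3_KO. Within DPP3_KO the order of the neutrophil sum, replicate 1 lowest and replicate 2 highest, was that of the mitosis sum. Within Ctrl it was not: replicate 3, with the highest neutrophil sum of all 6 libraries, had the lowest mitosis sum of the 3. The part of neutrophils in the mitosis values was not tested.

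Genes of neutrophil precursors were summed as well. Mpo, the myeloperoxidase gene of early granules, stood at 1.95, 1.12 and 5.96 TPM in Ctrl and 0.21, 2.30 and 13.1 in DPP3_KO, highest in replicate 3. The 12 precursor genes summed to 1325 to 7711 TPM in Ctrl and to 338, 3934 and 2762 in DPP3_KO, with 0 to 2 of the 12 listed at 0 per library. The order of this sum in DPP3_KO was that of the mature neutrophil and mitosis sums. Most single genes did not share it: 9 of the 12 were highest in replicate 3 and 3 (Lcn2, Chil3 and Fcnb) in replicate 2. Without Chil3 the sums were 203, 2530 and 2481 TPM in DPP3_KO replicates 1 to 3, so replicates 2 and 3 were nearly equal. The mean log2(TPM + 1) of the 12 genes was 2.40, 4.38 and 5.10, highest in replicate 3. The 9 erythroid precursor genes found summed to 107 to 204 TPM in Ctrl and 44.6 to 152 in DPP3_KO, most of it from Alas2 (21.2 to 163.5 TPM over the 6 libraries) and Tfrc (8.94 to 25.8). This sum was lower in DPP3_KO replicate 2 than in replicate 1.

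Markers of some cell types that reside in the lung differed with the group. Alveolar macrophage and capillary endothelial genes, from cell types that can divide in the adult lung, were lower in DPP3_KO. As deposited, 10 of 14 and 11 of 12 fell (limma), where 34.0% of all genes were called lower. After scaling 6 and 3 fell, where 0.888% of all genes were called lower. The endothelial cadherin gene Cdh5 stood at 326, 379 and 254 TPM in Ctrl and 77.3, 38.1 and 50.7 in DPP3_KO. The macrophage receptor gene Mrc1 stood at 50.3, 47.0 and 45.5 TPM in Ctrl and 9.34, 9.86 and 9.08 in DPP3_KO. Both were lower in all 3 DPP3_KO libraries, as the S phase sum was, and DPP3_KO replicate 1 was the lowest library in neither. The 12 capillary genes summed to 2604 to 3238 TPM in Ctrl and 669 to 1219 in DPP3_KO. The 14 macrophage genes summed to 2508 to 4167 TPM in Ctrl and to 329, 2028 and 609.7 in DPP3_KO replicates 1 to 3, which is the order of the mitosis sum within that group. Chil3, which is also among the precursor genes, supplied 1404 of the 2028 TPM in DPP3_KO replicate 2 and 2347 of the 4167 in Ctrl replicate 3. Without it the macrophage sums were 1753 to 2096 TPM in Ctrl and 193.5, 624.4 and 328.1 in DPP3_KO, in the same order. Single genes did not all share that order: of the 14, 5 were highest in DPP3_KO replicate 1, 7 in replicate 2 and 2 in replicate 3. The alveolar type 2 list summed to 27161 to 50316 TPM in Ctrl and 19621 to 30491 in DPP3_KO, so the sums overlapped. Most of this sum came from Sftpc. Of the 10 type 2 genes 5 fell as deposited (limma), where 34.0% of all genes were called lower, and the median log2 change was -0.88. After scaling 0 of them passed, with a median of -0.22. The ciliated list summed to 629 to 857 TPM in Ctrl and 1054 to 1151 in DPP3_KO. The part of these cell types in the member values was not tested.

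**Figure D3:**
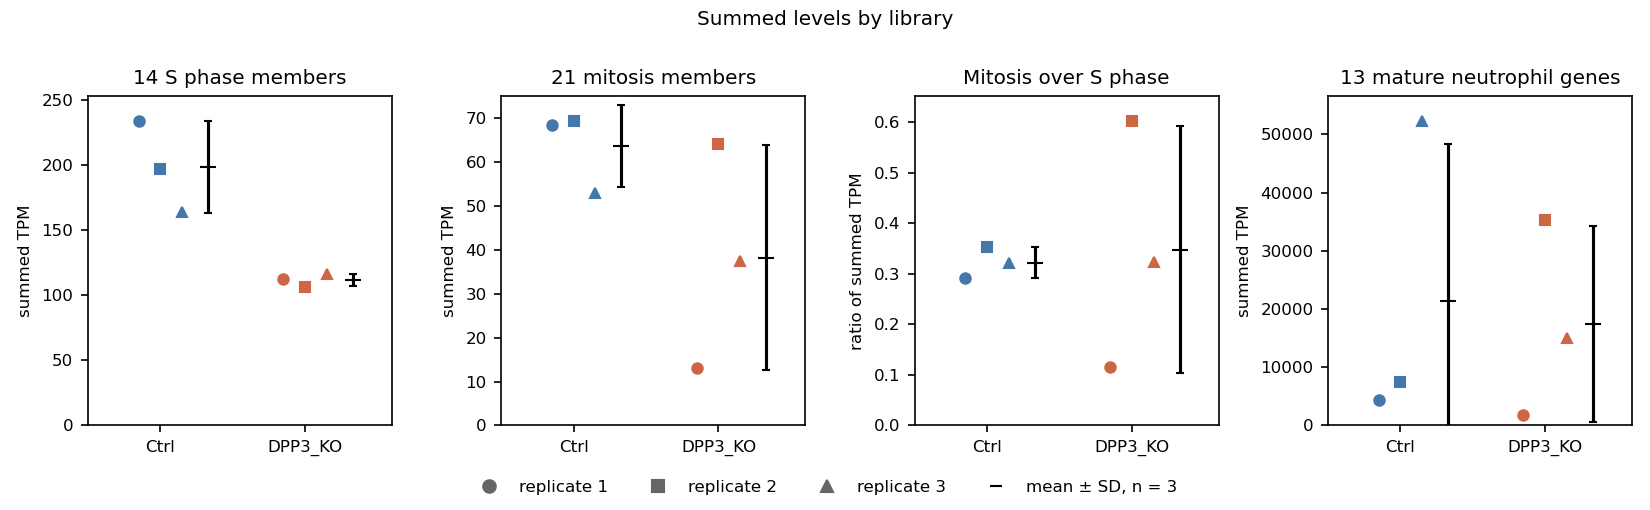
Summed TPM of the S phase members, the mitosis members and 13 mature neutrophil genes, and the ratio of mitosis to S phase sums, in each library, with the mean and SD of each group (n = 3; bars are cut at 0). The S phase sum separates the groups as deposited (after median-of-ratios scaling it overlaps), whereas the mitosis sum and the ratio (0.116 to 0.603) spread within DPP3_KO.

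Other genes of the same steps came from lists set by function. Of 28 tested further replication genes 7 fell, 0 rose and 21 did not pass. The share that fell is below the 34.0% of all genes called lower. The list's median change was -0.45, above that over all genes (-0.60). Prim2, a primase subunit, averaged 7.17 ± 0.140 TPM in Ctrl and 3.41 ± 0.135 in DPP3_KO (-0.89 ± 0.18 SE on the log2 scale, limma adjusted p = 0.0177). Pola2, a subunit of the polymerase that starts each strand, and Cdt1, which licenses origins with Cdc6, fell by 1.00 and 1.04. After scaling 0 of the 28 passed and the median was 0.05, so as a list they lay at the typical gene, while the S phase members lay at -0.34.

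Of 24 tested further mitosis genes 5 fell, 0 rose and 19 did not pass, a share again below the 34.0% of all genes, and the median was -0.53, or -0.08 when scaled, where 0 passed. Foxm1, the transcription factor of mitosis genes, stood at 2.50, 1.75 and 1.98 TPM in Ctrl and 0.40, 0.81 and 0.60 in DPP3_KO (-0.94 ± 0.26, limma adjusted p = 0.0313). Its groups were apart on both scales. Incenp, the scaffold of the Aurkb complex, and Ncaph, a condensin subunit, fell by 0.88 and 0.97. All 40 genes of this list summed to 126, 135 and 111 TPM in Ctrl and 50.1, 118 and 75.9 in DPP3_KO, the order of the mitosis members within DPP3_KO.

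Upstream of both sets, 12 of 20 tested G1 cyclin, kinase, E2F and RB family genes fell as deposited, 0 rose and 8 did not pass, where 34.0% of all genes were called lower. The median was -0.72. After scaling 0 passed (median -0.14), where 0.888% of all genes were called lower. Ccnd2, a D-type cyclin, stood at 27.3, 33.7 and 23.8 TPM in Ctrl and 12.6, 9.28 and 5.91 in DPP3_KO (-1.55 ± 0.28, limma adjusted p = 0.0160; -0.93 after scaling, adjusted p = 0.0859). Cdk6, a kinase it activates, and Tfdp2, a partner of the E2F factors, fell by 1.17 and 1.21. Among 14 inhibitors of cyclin-dependent kinases and other genes of resting cells 1 fell, Cdkn2b (-1.26, adjusted p = 0.0352; -0.63 after scaling), and 13 did not pass. Ccng2 and Cdkn2a, at -0.60 and -0.94, were next by p (adjusted p = 0.0540 and 0.0654). The median of this list was -0.33 as deposited and 0.31 after scaling, where 12 of 14 were above 0 and 0 passed.

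The level of the mitosis members turned on which DPP3_KO library was left out. It also turned on the pseudocount, the amount added to TPM before the logarithm. The number of S phase calls turned on most libraries. Without DPP3_KO replicate 1, the median log2 change of the mitosis members was -0.34 as deposited and 0.05 after scaling, and 4 of 16 were below the median over all genes (-0.59), against 11 of 16 with all libraries. Cdk1 was then at -0.13 and 0.45 on the 2 scales, and Ccnb2 at -0.03 and 0.50. Without DPP3_KO replicate 2, the mitosis median was -1.05 and 5 members fell as deposited: Top2a, Ccnb1, Ccna2, Kif20a and Prc1 (limma adjusted p from 0.0264 to 0.0498), where 32.2% of all genes were called lower. The S phase median stayed between -0.82 and -1.04 as deposited and between -0.23 and -0.44 after scaling in all 6 such fits. Fewer S phase members were called in them. Without DPP3_KO replicate 1, 2 or 3 they numbered 4, 6 and 1, where 20.5%, 32.2% and 10.9% of all genes were called lower. Without Ctrl replicate 1, 2 or 3 they numbered 0, 0 and 7, where 6.68%, 0.548% and 28.8% of all genes were. TPM rescaled without Scgb1a1 likewise left 0 of 12 S phase members called, against 2.69% of all genes called lower.

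**Figure D4:**
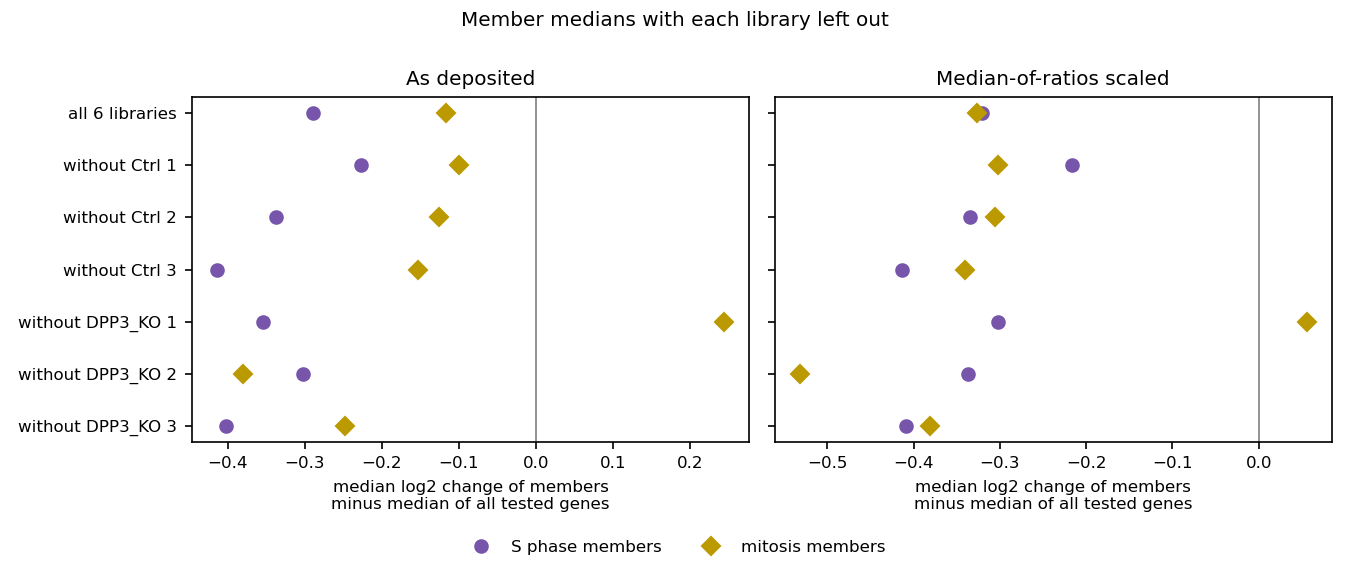
Median log2 change of the tested S phase and mitosis members minus the median over all tested genes, with all 6 libraries and with each left out, unscaled (left) and with median-of-ratios scaling (right). The mitosis median crosses to above 0 without DPP3_KO replicate 1 (0.24 and 0.06), and the S phase median stays below 0 in every fit shown.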

How the data were processed

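Groups and replicate numbers came from the sample titles; the title of the third Ctrl sample misspells the line's number, read as a slip. The authors deposited 1 matrix of TPM for 56980 genes, with gene lengths. The submitters' processing notes list HISAT2, StringTie, RSEM and the GRCm39 build, with no roles or versions. The handling of human reads, strand and annotation release is not given in the sources used here. Whether human reads add to the values of the members was not tested.

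TPM became log2(TPM + 1), which understates changes of low genes. Genes averaging at least 1 TPM were tested with limma 3.58.1 in R 4.3.3 (eBayes with an intensity trend, two-sided, Benjamini-Hochberg over all tested genes, threshold 0.05). An exact permutation test of 3 against 3 libraries cannot go below p = 0.1 and was not used. Members and lists were chosen with earlier results of these data known. By rule, values in every library are given for called members and for Mki67, Top2a, Cdk1, Ccnb1, Pcna, Mcm2, Mcm6, Rrm2 and E2f1; of each context list the 3 genes of smallest p are named, and of cell type lists the first marker, of which 1 is not reported here. Birc5, Cdc20, Ube2c, Bub1b, Kif11, Alas2, Tfrc, Lcn2, Chil3 and Fcnb, and the promoters shown, were picked with their values known. Alternatives were other pseudocounts, filters, scalings, variance models, a replicate block, a threshold of 0.1 and leaving out each library. The fit was tested on simulated data.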

Additional observations from a re-analysis of the deposited data

How the results depend on the processing

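Members called lower numbered 8 as reported, 4 with no filter, 13 at an adjusted p of 0.1, and 0 with median-of-ratios scaling (with or without the length trend removed), quantile normalization or TPM rescaled without Scgb1a1. Leaving out 1 library gave 0 to 11 as deposited and 0 in each of the 6 scaled fits. No member was called higher under any alternative run. Genes called lower numbered 5321 as reported, 3093 with no filter, 139 scaled, 140 with quantile normalization, 421 without Scgb1a1, 92 with the length trend removed, 85 to 5049 with 1 library left out, and 8, 19, 21, 49, 55 and 175 when scaled as well. Genes called higher numbered 216 as reported, 304 scaled, 327 with quantile normalization, 141 without Scgb1a1, 353 at the looser threshold, 6 to 161 with 1 library left out, and 21, 34, 48, 68, 104 and 189 when scaled as well. The S phase median (-0.89) was -0.34 scaled, -0.30 with quantile normalization, -0.32 with the length trend removed, and -0.23, -0.31, -0.36, -0.37, -0.42 and -0.44 scaled with 1 library left out. The mitosis median (-0.71) was -1.27 with a pseudocount of 0.1, -0.23 with quantile normalization and 0.045 scaled without DPP3_KO replicate 1. At a pseudocount of 0.1 it lay below the S phase median (-1.08), with 14 of 16 mitosis members below the median over all genes (-0.68). With a pseudocount of 5 it was -0.27, above that over all genes (-0.40), with 3 of 16 below. There 1 of 16 was called lower, against 34.3% of all genes. Where a setting moved a value, the cause was not tested.

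Single members changed sign. Pcna was at 0.051 scaled, and at 0.13, 0.046 and 0.24 scaled without Ctrl replicate 1, Ctrl replicate 3 or DPP3_KO replicate 2. Rrm1 was at 0.40 scaled, 0.43 with quantile normalization, 0.064 without Scgb1a1, 0.55 with the length trend removed, and 0.44, 0.40, 0.34, 0.43, 0.63 and 0.15 scaled with 1 library left out. Tyms was at 0.030 with the length trend removed and at 0.28, 0.11 and 0.017 scaled without Ctrl replicate 1, DPP3_KO replicate 1 or DPP3_KO replicate 2. Aurka was at 0.037 scaled, 0.091 with quantile normalization, and 0.12, 0.14 and 0.22 scaled without Ctrl replicate 1, Ctrl replicate 2 or DPP3_KO replicate 1. With quantile normalization Plk1 was at 0.022 and Cdc20 at 0.035. Scaled without Ctrl replicate 2 Plk1 was at 0.011 and Cdc20 at 0.18, and Cdc20 was at 0.13 without Ctrl replicate 1 and 0.018 without DPP3_KO replicate 3. Scaled without DPP3_KO replicate 1, Ccnb1 was at 0.075, Ccnb2 at 0.50, Cdk1 at 0.45, Aurkb at 0.016, Plk1 at 0.24, Birc5 at 0.30, Cdc20 at 0.43 and Tpx2 at 0.0037. Ube2c ran from -0.16 without DPP3_KO replicate 2 to 0.54 without DPP3_KO replicate 1, and was at -0.015 without Ctrl replicate 3.

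Replicate numbers are shared by the groups but did not pair the samples: deviations of same-numbered libraries correlated at r = 0.27, -0.21 and 0.15 across genes, and not every library correlated best with its own number. With the number as a replicate block, 4734 genes and 7 members were called lower, and Pcna no longer passed (limma adjusted p = 0.0525). With the replicate block and scaling, 18 genes were called lower and 63 higher, with 0 members, an S phase median of -0.34, Pcna at 0.051, Rrm1 at 0.40 and Aurka at 0.037. TPM keeps no depth, so the error of the lowest members, under 1 TPM, cannot be given.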
